A study of Mus musculus with 7 samples.

Results

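Genes of the AP-1 and immediate early response were followed through the H3K27ac and H3K4me2 peak lists of mouse chondrocytes and dermal fibroblasts. The genes were Fos, Fosb, Fosl1 and Fosl2 of the FOS family, Jun, Junb and Jund of the JUN family, Atf3 of the ATF family, and Egr1 and Ier2. They were listed by name, with earlier results of these data known, and make up 10 of 22208 protein-coding genes with an mm9 position. For each gene, peaks at most 1 kb from the transcription start site (TSS), over the gene body and within 50 kb of the gene were collected in every list. Fosl2 had a promoter peak of 7045 to 8188 bp in the 4 chondrocyte H3K27ac lists and no fibroblast H3K27ac peak nearer to its TSS than 49.99 kb, whereas Fos, Fosl1, Jun, Junb and Ier2 were marked in all 6 lists. The fibroblast list also lacked a promoter peak at the fibroblast marker Col1a1, where the paper reports peaks. Its missing peak at Fosl2 is therefore not read as an absent mark.

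AP-1 is a dimer of basic leucine zipper proteins, usually a FOS protein with a JUN protein or a JUN pair, which binds the sequence TGANTCA at enhancers and promoters. Most of its genes are immediate early genes, which are transcribed within minutes of serum, growth factor or stress signals without new protein synthesis, while Jund and Fosl2 are transcribed more steadily in many cells. In the skeleton, FOS and JUN proteins are known for roles in osteoclasts, osteoblasts and growth plate chondrocytes.

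The series mapped active histone marks in order to find enhancers of Sox9 in chondrocytes, and 6 of its 7 samples are analysed here. Chondrocytes were isolated from rib cartilage of newborn mice and gave 2 replicate H3K27ac libraries and 1 H3K4me2 library, and dermal fibroblasts from dorsal skin of newborn mice, the negative control, gave 1 H3K27ac library. A further H3K27ac library was made from chondrocytes of wild-type (WT) mice, and another from those of E160Δ/Δ E308Δ/Δ mice, in which 2 Sox9 enhancers were removed by CRISPR/Cas9 on both alleles. The edited embryos were C57BL/6J. The WT and deletion mice were littermates, and the methods give the newborn age for primary chondrocytes as a whole. Any pooling of animals is not given in the sources used here. Chondrocytes were released with collagenase in the warm and fibroblasts in the cold, so cell type and preparation cannot be told apart. Both were then placed in medium with fetal bovine serum, and the chondrocytes were used within 2 passages. How long the cells of each library were in serum is not given. Only chondrocyte H3K27ac had replicates (n = 2), so differences between lists carry no test. Intervals below are exact binomial (Clopper-Pearson) 95% intervals, which cover counting error only.

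The lists held 19454 to 66355 peaks on chromosomes 1 to 19 and X, with fibroblasts the shortest and H3K4me2 the longest, and the number of reads behind them is unknown. Chondrocyte replicate 2 follows GRCm38 positions and the other 5 lists mm9. Of 15 chondrocyte marker genes, 9 to 13 had a promoter peak in the chondrocyte H3K27ac lists, 11 had one for H3K4me2 and 1 had one in fibroblasts. Of 10 fibroblast markers, 5 to 9 were marked in the chondrocyte H3K27ac lists and 7 in fibroblasts, so fibroblast markers did not separate the cell types. The fibroblast list had no promoter peak at Col1a1, Col1a2 or Col3a1, where WT had 19419, 9178 and 5779 bp. The paper reports fibroblast peaks at Col1a1. Chondrocyte replicate 1 had none at Sox9, Col2a1 or Col11a1, where WT had 8247, 7110 and 10456 bp. A missing peak in either list is therefore not read as an absent mark. Of 4 osteoblast markers, 1 or 2 were marked in each chondrocyte list and none in fibroblasts. Of 3 endothelial markers, 1 was marked in fibroblasts and for H3K4me2, and 2 of 3 muscle markers were marked for H3K4me2 alone. No keratinocyte marker (of 4) or immune marker (of 3) was marked in any list.

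Promoters of the 10 genes were marked in most lists. With H3K27ac, 7 of 10 were marked in chondrocyte replicate 1, where 41.7% of all protein-coding promoters were, and 10 of 10 in replicate 2 (43.0% of all), a mean of 8.5 ± 2.12 (SD, n = 2). In WT chondrocytes 10 of 10 were marked (47.2% of all), in E160Δ/Δ E308Δ/Δ chondrocytes 9 (44.4%) and in fibroblasts 8 (44.7%). With H3K4me2, 8 of 10 were marked (62.7% of all). Replicate 1 had no peak within 1 kb of the TSS of Fosb, Jund or Egr1, but had a peak within 1.33 kb of each. Fos, Fosl1, Jun, Junb and Ier2, 5 of the 10, were marked in all 6 lists, as were 35.9% of the 20308 promoters with positions in both builds. Atf3 joined them in all 5 H3K27ac lists, where the background was 36.4%. The members marked were therefore above the background share in each list, and at 1 kb the fibroblast count lay within the range of the chondrocyte lists. With a 2 kb window, 10 genes were marked in each chondrocyte H3K27ac list and 8 in fibroblasts. The shares over all promoters at 2 kb were not computed.

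**Figure D1:**
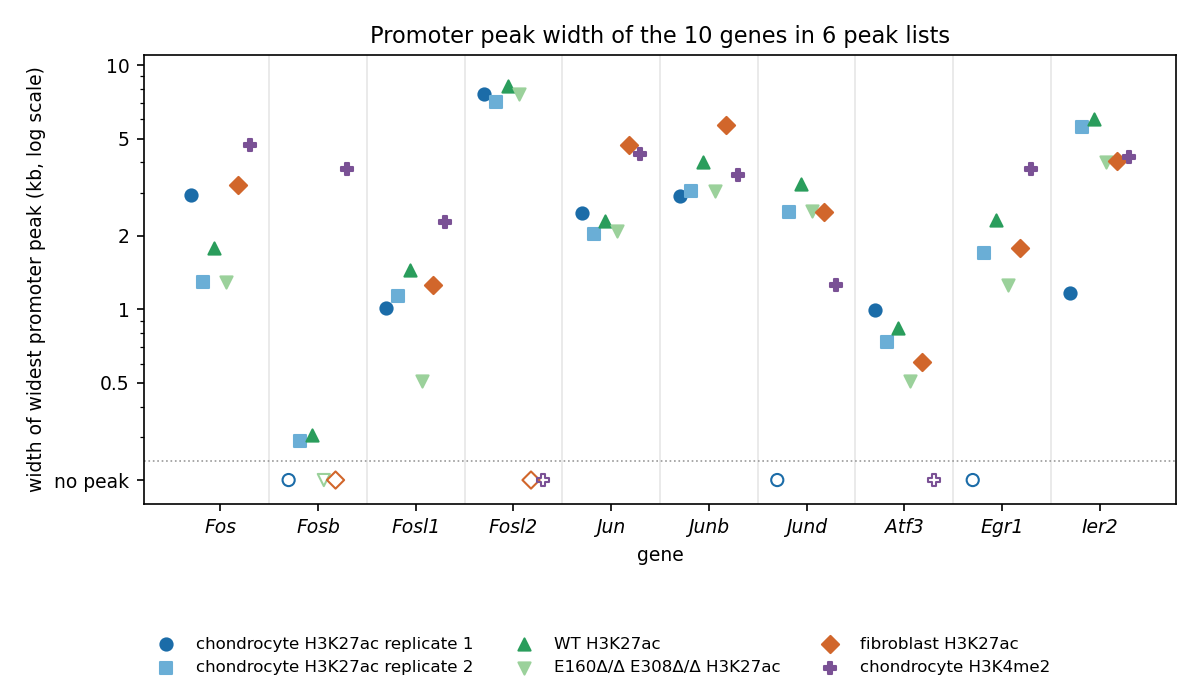
Width of the widest peak within 1 kb of the TSS (kb, log scale) for each of the 10 genes in the 6 lists. Filled symbols are peaks and open symbols at the bottom mark lists with no promoter peak. Fosl2 sits at 7045 to 8188 bp in the 4 chondrocyte H3K27ac lists with open symbols for fibroblasts and H3K4me2, and Fosb is at 305 bp or less or without a peak for H3K27ac.

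The promoter sequences of Fos, Fosb, Fosl2, Jun, Junb and Atf3 are given here. They are the 250 bases before the TSS from RefSeq (GRCm38.p6), written 5′ to 3′ on the transcribed strand. An entry was found for 7 of the 10 genes (Fos, Fosb, Fosl2, Jun, Junb, Jund and Atf3). The Fosb window reaches 19310046, although the GRCm38 TSS used for its peaks was 19310118 on chromosome 7. Part of that window therefore lies downstream of the TSS used for the peaks. Capitals mark the GC box (GGGCGG), the TATA box (TATAAA) and the 5-base start of the cyclic AMP response element (TGACG), each on either strand. Adjacent GC boxes can share bases. The Jund sequence held none of these motifs and is not printed.
Fos, chr12:85473640-85473889 (plus strand): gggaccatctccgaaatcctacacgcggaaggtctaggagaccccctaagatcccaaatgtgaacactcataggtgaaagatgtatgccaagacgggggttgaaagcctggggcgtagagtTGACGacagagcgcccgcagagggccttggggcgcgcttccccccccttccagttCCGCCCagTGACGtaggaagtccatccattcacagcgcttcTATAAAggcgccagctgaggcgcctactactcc
Fosb, chr7:19310046-19310295 (minus strand): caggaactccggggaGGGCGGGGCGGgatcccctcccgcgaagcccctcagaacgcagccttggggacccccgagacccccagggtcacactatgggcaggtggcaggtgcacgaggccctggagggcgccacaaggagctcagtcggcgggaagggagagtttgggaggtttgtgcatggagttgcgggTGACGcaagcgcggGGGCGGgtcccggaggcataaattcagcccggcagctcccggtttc
Fosl2, chr5:32136222-32136471 (plus strand): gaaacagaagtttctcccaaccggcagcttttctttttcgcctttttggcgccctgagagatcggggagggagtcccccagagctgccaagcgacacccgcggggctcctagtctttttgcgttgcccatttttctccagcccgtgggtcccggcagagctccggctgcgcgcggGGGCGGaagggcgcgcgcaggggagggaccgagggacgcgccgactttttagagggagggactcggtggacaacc
Jun, chr4:95052223-95052472 (minus strand): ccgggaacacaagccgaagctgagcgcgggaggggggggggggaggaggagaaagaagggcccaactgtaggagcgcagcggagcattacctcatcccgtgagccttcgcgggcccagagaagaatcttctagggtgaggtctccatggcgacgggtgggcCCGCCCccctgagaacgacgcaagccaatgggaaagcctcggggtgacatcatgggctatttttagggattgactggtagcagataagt
Junb, chr8:84978749-84978998 (minus strand): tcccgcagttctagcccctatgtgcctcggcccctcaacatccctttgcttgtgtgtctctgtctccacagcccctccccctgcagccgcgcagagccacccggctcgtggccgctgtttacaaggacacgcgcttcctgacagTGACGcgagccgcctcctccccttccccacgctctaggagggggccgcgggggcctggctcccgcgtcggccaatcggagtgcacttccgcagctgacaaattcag
Atf3, chr1:191183334-191183583 (minus strand): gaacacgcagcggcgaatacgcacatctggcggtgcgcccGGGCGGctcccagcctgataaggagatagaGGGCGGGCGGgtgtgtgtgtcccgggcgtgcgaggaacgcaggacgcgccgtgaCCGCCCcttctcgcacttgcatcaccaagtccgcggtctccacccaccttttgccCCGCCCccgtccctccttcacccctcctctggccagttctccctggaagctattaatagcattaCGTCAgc
None of the 7 promoters held the AP-1 site (TGANTCA), which was found in 6.75% of 32851 promoters of the same length, and none held the full response element TGACGTCA (1.55% of promoters) or the CArG box bound by serum response factor (1.47%). A GC box was found in 5 of 7 (32.7% of all promoters), the TATA box only in Fos among the 7 (12.4% of all) and TGACG in Fos, Fosb, Junb and Atf3 (17.8% of all). The TGACG motif was chosen after the sequences were seen. Median GC content was 64.4% in the 7 promoters and 52.4% over all, with Jund at 47.6%. No match says only that these letters are missing from this window.

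Fos and Fosb, the inducible FOS genes, differed in their marks. The Fos promoter peak (TSS at chromosome 12, 86814840, mm9) was 2953 bp wide in replicate 1, 1290 bp in replicate 2, 1781 bp in WT, 1298 bp in the deletion list and 3237 bp in fibroblasts, and 4733 bp for H3K4me2. It covered the TSS in every list. In replicate 1 and fibroblasts a single peak reached from −2.44 and −2.40 kb across the TSS, and in the other 3 H3K27ac lists a separate peak of 817 to 1071 bp lay upstream. By score, which ranks peaks only within a list, it stood in the top 16.5%, 8.16%, 5.12% and 5.68% of the chondrocyte H3K27ac lists and the top 24.0% of the fibroblast list.

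Fosb had a narrow H3K27ac promoter peak or none in each list. Its promoter peak was 290 bp in replicate 2 and 305 bp in WT, in the top 84.7% and 82.9% by width, that is, among the narrower peaks of either list. By score the same peaks stood higher, in the top 33.9% and 36.5%. Replicate 1, the deletion list and fibroblasts had none, and their nearest peaks began 1.31, 1.45 and 8.87 kb downstream of the TSS. H3K4me2 covered the same TSS with a peak of 3755 bp in the top 2.50% by score, the highest rank of any of the 10 genes in that list. Fosb was thus the member with the narrowest H3K27ac promoter peaks and a wide H3K4me2 peak.

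Fosl1, which encodes FRA-1, had promoter peaks of 1009, 1133, 1452 and 510 bp in replicate 1, replicate 2, WT and the deletion list, and of 1260 bp in fibroblasts. The H3K27ac peaks ranked from the top 47.5% to the top 89.3% by score. The H3K4me2 peak was 2286 bp wide and in the top 13.9%. Chondrocyte and fibroblast widths overlapped.

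Fosl2, which encodes FRA-2, had the widest promoter peak of the 10 genes in each chondrocyte H3K27ac list. The peak was 7620 bp in replicate 1, 7045 bp in replicate 2, 8188 bp in WT and 7628 bp in the deletion list, and in the mm9 lists it ran from between −4.24 and −4.17 kb to between 3.39 and 4.02 kb from the TSS (chromosome 5, 32438845, mm9). These widths lay in the top 0.0235%, 0.152%, 0.234% and 0.182% of their lists. Its score rank varied, from the top 0.596% in WT, 1.66% in the deletion list and 3.99% in replicate 2 to 54.1% in replicate 1. Fibroblasts had no H3K27ac peak over the promoter or the gene body, and their nearest peak, 1984 bp wide and in the top 92.6%, ended 49.99 kb upstream. H3K4me2 was also missing within 1 kb of the TSS, where the nearest peak (2961 bp, top 62.5%) lay 1.30 kb upstream and overlapped the upstream end of the H3K27ac peak.

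Other wide promoters showed where Fosl2 stood. Of 154 promoters with a WT peak of at least 6 kb, 43 (27.9%, 21.0–35.7) had no promoter peak in fibroblasts and 57 (37.0%, 29.4–45.2) none for H3K4me2, against 9.38% and 1.78% of the 10329 narrower ones. Replicate 1, a chondrocyte list, left 38 of the 154 unmarked (24.7%, 18.1–32.3) and the deletion list 2 (1.30%, 0.158–4.61). The shares of wide promoters unmarked in fibroblasts and in replicate 1 had overlapping intervals, and Fosl2 was marked in replicate 1. Col1a1 and Col1a2 were among the wide promoters unmarked in fibroblasts, and Sox9, Col2a1 and Col11a1 among those unmarked in replicate 1.

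The JUN genes, which can form dimers with themselves or with FOS proteins, had wide marks in both cell types. At Jun (TSS at chromosome 4, 94718913, mm9), each chondrocyte H3K27ac list had a pair of peaks, the downstream one 2482, 2040, 2304 and 2103 bp wide and the upstream one 1841, 1444, 1538 and 1566 bp wide in replicate 1, replicate 2, WT and the deletion list. The gap between them was 125 to 300 bp and lay just upstream of the TSS, which the downstream peak covered in replicate 1, replicate 2 and WT. In the deletion list the TSS fell in the gap. Fibroblasts had a single peak of 4727 bp across the TSS, in the top 0.709% by width. H3K4me2 had peaks of 2128 and 4334 bp with a gap of 55 bp.

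Junb, on chromosome 8, also had a pair of peaks in each chondrocyte H3K27ac list. Its downstream peaks were 2915, 3051, 4028 and 3061 bp wide and its upstream peaks 1414, 2227, 2667 and 2536 bp in the same order of lists, with gaps of 149 to 461 bp. The TSS lay in the gap in both replicates and under the downstream peak in the WT and deletion lists. The fibroblast list again had 1 peak, of 5692 bp, which covered the TSS and was the widest fibroblast promoter peak of the 10 genes (top 0.334%). H3K4me2 gave a peak of 3537 bp. H3K27ac covered 96.7 to 100% of the short Junb gene in the 5 lists and 62.8 to 76.1% of Jun. The fibroblast peaks were wider than any single chondrocyte peak at Jun and Junb, but the bases covered within 5 kb of the TSS were 4727 in fibroblasts against 3484 to 4323 in chondrocytes at Jun, and 5692 against 4329 to 6695 at Junb.

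Jund, the JUN gene with the steadiest transcription, was marked mainly downstream of its annotated TSS (chromosome 8, 73221638, mm9). The peak was 2502 bp wide in replicate 2, 3255 bp in WT, 2519 bp in the deletion list and 2510 bp in fibroblasts, and it began 0.462, 0.182, 0.459 and 0.499 kb past the TSS. In replicate 1 a peak of 2461 bp began 1.33 kb past the TSS and so missed the 1 kb limit. It ranked in the top 5.44%, 2.78%, 6.52% and 3.34% by score where the promoter was marked. H3K4me2 had a 1255 bp peak over the TSS and a 1188 bp peak upstream of it. No H3K27ac peak covered the annotated TSS itself in any list.

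**Figure D2:**
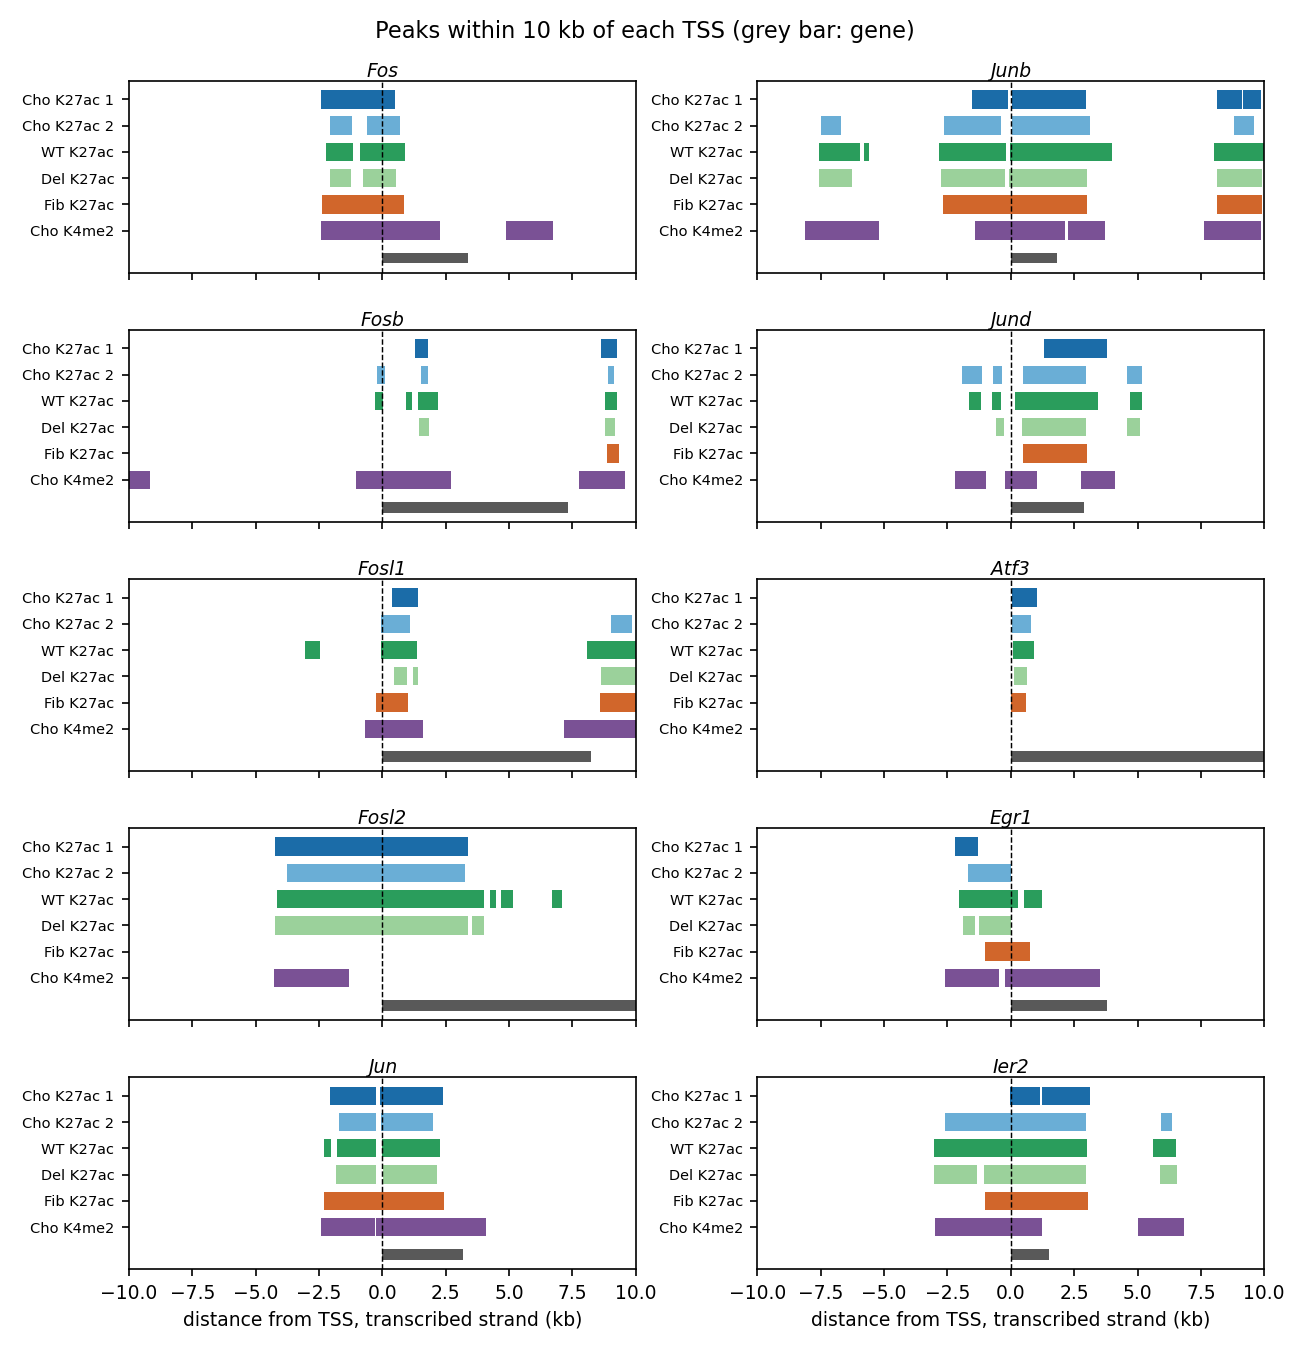
Peaks of the 6 lists within 10 kb of each TSS, drawn to scale by distance from the TSS along the transcribed strand (kb). Rows are chondrocyte H3K27ac replicates 1 and 2, WT, E160Δ/Δ E308Δ/Δ (Del) and fibroblast (Fib) H3K27ac, and chondrocyte H3K4me2, the dashed line is the TSS and the grey bar the gene. Jun and Junb show a gap at or just upstream of the TSS in the 4 chondrocyte H3K27ac rows and none in fibroblasts.

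Atf3, a stress-induced repressor of the ATF family, had narrow peaks just inside the gene. They were 996, 734, 839 and 508 bp wide in replicate 1, replicate 2, WT and the deletion list and 610 bp in fibroblasts, and all began 0.007 to 0.113 kb past the TSS (chromosome 1, 193007219, mm9). Score ranks ran from the top 15.1% in replicate 1 to the top 51.1% in fibroblasts. H3K4me2 had no peak within 1 kb, and the nearest lay 32.5 kb upstream. Atf3 and Fosl2 were the 2 members without an H3K4me2 promoter peak.

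Egr1, a zinc finger factor of the immediate early response, had promoter peaks of 1708 bp in replicate 2, 2330 bp in WT, 1263 bp in the deletion list and 1786 bp in fibroblasts. Replicate 1 had a 918 bp peak 1.29 kb upstream and none nearer. In replicate 2 and the deletion list the peak ended 0.025 and 0.009 kb past the TSS, while in fibroblasts it reached 0.771 kb into the gene. In WT it ended at 0.279 kb, and a second promoter peak of 708 bp ran from 0.507 to 1.214 kb, further than in fibroblasts. H3K4me2 had a 3757 bp peak over the TSS and gene. Ier2, a short gene of the same response, was covered over 93.2 to 100% of its length by H3K27ac in the 5 lists. Its promoter peak was 1162 bp in replicate 1, 5577 bp in replicate 2, 6032 bp in WT, 3999 bp in the deletion list and 4047 bp in fibroblasts, and 4213 bp for H3K4me2. Within 5 kb of the Ier2 TSS, 3054 bp were covered in replicate 1 and 5577 bp in replicate 2, and the 4047 bp of fibroblasts lay between the replicates.

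Over the members, the median promoter peak was wider than that of all marked promoters in each list. Median width was 2482 bp in replicate 1 (1346 bp over all marked promoters), 1874 bp in replicate 2 (993 bp), 2317 bp in WT (1447 bp), 2103 bp in the deletion list (1137 bp), 2874 bp in fibroblasts (1241 bp) and 3756 bp for H3K4me2 (2091 bp). Promoter peaks in the widest 5% of a list were found for 1 member in replicate 1 (3.80% of all promoters), 4 in replicate 2 (3.35%), 4 in WT (4.94%), 4 with the deletion (4%), 4 in fibroblasts (3.28%) and 6 for H3K4me2 (10.2%). Fosl2, Junb, Jund and Ier2 were the 4 in replicate 2, WT and the deletion list, and Fos, Jun, Junb and Ier2 in fibroblasts. In replicate 1 Fosl2 was the member inside the limit and Fos, at 5.05%, was just outside.

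Median score rank of the members was the top 37.7% in replicate 1 (25.4% over all marked promoters), 16.7% in replicate 2 (23.6%), 11% in WT (16.7%), 11.9% with the deletion (21.4%), 30.8% in fibroblasts (26.4%) and 45.6% for H3K4me2 (16.3%). The members thus ranked above the median of all marked promoters in the 3 narrowPeak lists and below it in the other 3, so the score rank gave no common order while the width did.

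Genes related to the 10 were read in the same way from lists of other AP-1 partners (20 with a position) and other immediate early genes (41). Other AP-1 partners were marked in 16 of 20 cases in replicate 1, 15 in replicate 2, 16 in WT, the deletion list and fibroblasts, and 17 for H3K4me2. Other immediate early genes were marked in 27, 32, 34, 34, 32 and 35 of 41 cases in the order replicate 1, replicate 2, WT, deletion, fibroblasts and H3K4me2. Their WT promoter peaks had a median width of 3919 bp and 21 of the 41 were in the widest 5%. Of all 61, 35 were marked in all 6 lists. Both lists were marked above the background of their lists, as the 10 members were.

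The widest WT promoter peaks among them were those of Maf (8594 bp), Cyr61 (7396 bp), Id1 (6372 bp), Klf6 (6288 bp) and Zfp36l1 (5933 bp). Maf, a leucine zipper factor that can pair with FOS and JUN, was 6104 bp wide in fibroblasts, and Klf6 and Zfp36l1 were 6353 and 6902 bp there. Cyr61, a secreted matrix protein of the immediate early response, was 6130 bp wide in fibroblasts and, like Fosl2, had no H3K4me2 promoter peak. Id1 was 1958 bp wide in fibroblasts. All 5 were marked in fibroblasts. Of the 50 related genes marked in WT, 3 were unmarked in fibroblasts, namely Hes1, Nr4a3 and Zfp36, which are named after their values were seen. Of all 10483 promoters marked in WT, 9471 were also marked in fibroblasts, so 3 of 50 was not above the share over all promoters. Hes1, a transcriptional repressor of the Notch response, had peaks of 1940, 1470, 3801 and 1678 bp in replicate 1, replicate 2, WT and the deletion list and none in fibroblasts or for H3K4me2, so the presence and absence of a promoter peak over the 6 lists was the same as at Fosl2. Zfp36 (5229 bp in WT) and Nr4a3 (3366 bp) were also unmarked in replicate 1 and had H3K4me2. Nrl, Csrnp1 and Npas4 had no promoter peak in any list.

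Away from promoters, 81 distal regions were found within 50 kb of the 10 genes by joining overlapping distal peaks of the 5 mm9 lists. Distal means over 1 kb from the TSS of every protein-coding gene, with a single TSS for each gene. A peak at another start of a gene can therefore count as distal. Of the 81 regions, 52 were intergenic and 24 intronic. A promoter peak of an mm9 list overlapped 13 of them, so these can be the edge of a promoter mark. A peak of all 6 lists was held by 12 regions, 9 of them by distal peaks alone, and 23 held H3K4me2 alone among the mm9 lists. A chondrocyte H3K27ac peak of an mm9 list was present without a fibroblast peak at 38 regions and with one at 17. Fibroblast peaks without chondrocyte H3K27ac were found at 3 regions, and 2 regions were marked in fibroblasts alone. These counts set the replicate 1, WT and deletion lists together against the single fibroblast list, which was the shortest. Over all distal peaks, 70.9% of replicate 1 and 74.7% of WT peaks had no fibroblast peak. In turn, 57.0% of fibroblast peaks had no replicate 1 peak and 45.3% no WT peak. The share over all regions was not computed. Peaks of replicate 2 were assigned to a region when they lay at the same distance from the gene's start in GRCm38.

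**Figure D3:**
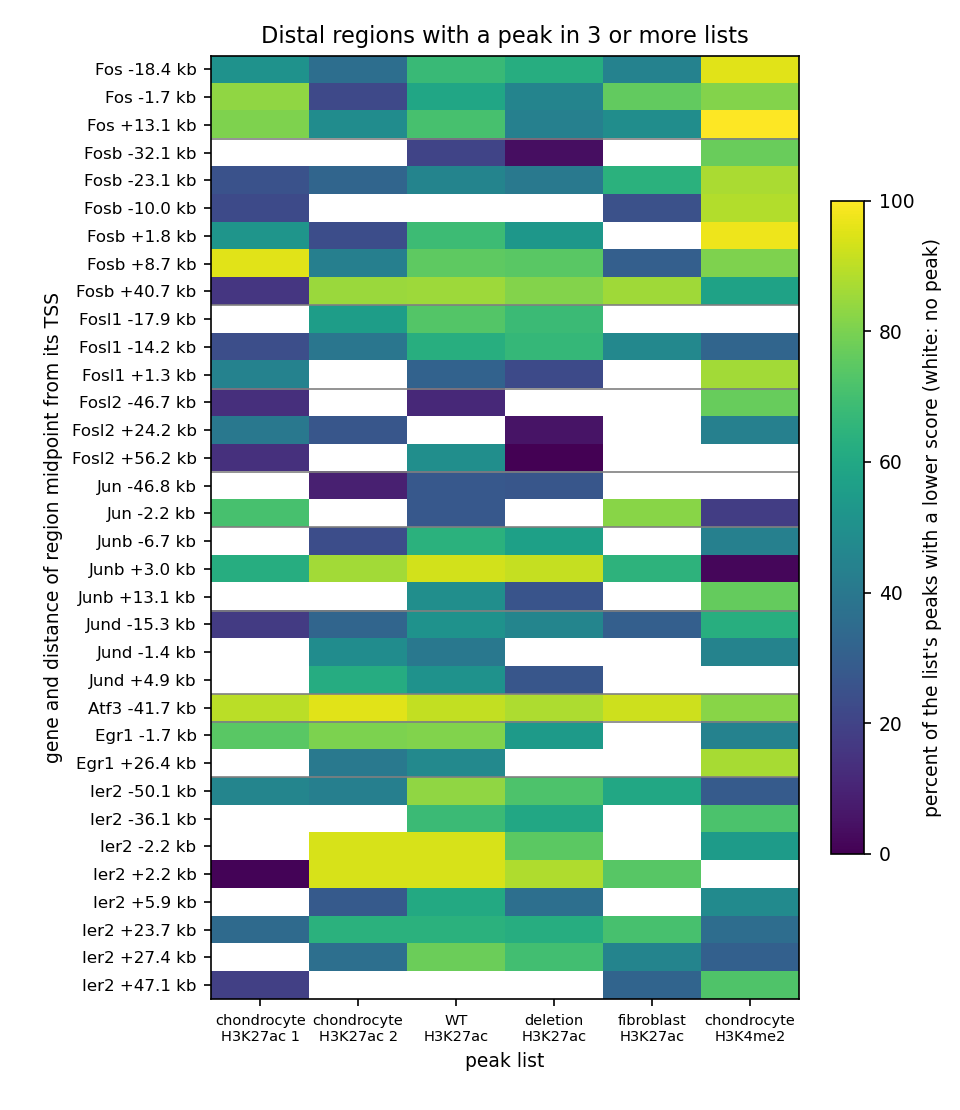
Distal regions of the 10 genes with a peak in 3 or more of the 6 lists (34 of 81). Colour gives the percent of a list's peaks with a lower score than the highest peak over the region, white cells have no peak, and labels give the distance of the midpoint from the TSS, downstream positive. The Atf3 region at −41.7 kb is bright in all 6 columns and the regions of Fosl2 are white in the fibroblast column.

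The region with the most even rank lay at −41.7 kb from the Atf3 TSS (chr1:193047569-193050255, mm9, intergenic). Its peaks were 1629 bp in replicate 1, 1419 bp in replicate 2, 1255 bp in WT, 1234 bp in the deletion list, 1477 bp in fibroblasts and 2687 bp for H3K4me2. It stood in the top 10.4%, 4.67%, 9.05%, 12.3%, 7.42% and 17.6% by score in that order. In each H3K27ac list it ranked above the peak at the annotated Atf3 TSS, which had ranks from the top 15.1% to the top 51.1%. The central 300 bases of the region held 2 GC boxes, and whether it is an enhancer or another promoter was not tested. At Fos, a region 13.1 kb downstream was in the top 0.279% for H3K4me2, in the top 19.4% in replicate 1 and in the top 51.0% in fibroblasts. In WT, the deletion list and replicate 2 the same Fos region was in the top 29.2%, 56.3% and 51.5%, so chondrocyte ranks lay on both sides of the fibroblast rank. At Fosb, a region 8.67 kb downstream ranked in the top 4.49% in replicate 1 and the top 69.6% in fibroblasts, and in the top 25%, 25.5% and 57.0% in WT, the deletion list and replicate 2.

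In 6 of the 9 regions with distal peaks in every list, the highest peaks of the mm9 lists shared at least 300 bases. The central 300 of these are given for 4 of the 6 (NCBIM37, mm9), to show what the shared marks lie on. Capitals mark TGANTCA on either strand, which reads the same way on both.
Fos downstream region, chr12:86827234-86827533 (plus strand): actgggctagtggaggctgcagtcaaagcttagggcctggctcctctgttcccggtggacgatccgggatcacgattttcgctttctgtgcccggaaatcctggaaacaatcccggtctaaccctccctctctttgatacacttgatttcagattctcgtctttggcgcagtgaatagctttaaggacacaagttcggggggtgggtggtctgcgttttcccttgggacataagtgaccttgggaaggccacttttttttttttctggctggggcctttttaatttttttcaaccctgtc
Fosb downstream region, chr7:19886211-19886510 (plus strand): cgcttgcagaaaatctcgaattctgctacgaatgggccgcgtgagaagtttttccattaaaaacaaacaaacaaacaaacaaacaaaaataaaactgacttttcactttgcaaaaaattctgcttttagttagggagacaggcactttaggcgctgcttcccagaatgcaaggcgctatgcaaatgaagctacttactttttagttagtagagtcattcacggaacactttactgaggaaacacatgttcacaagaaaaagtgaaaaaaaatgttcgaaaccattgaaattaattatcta
Fosl1 upstream region, chr19:5433504-5433803 (plus strand): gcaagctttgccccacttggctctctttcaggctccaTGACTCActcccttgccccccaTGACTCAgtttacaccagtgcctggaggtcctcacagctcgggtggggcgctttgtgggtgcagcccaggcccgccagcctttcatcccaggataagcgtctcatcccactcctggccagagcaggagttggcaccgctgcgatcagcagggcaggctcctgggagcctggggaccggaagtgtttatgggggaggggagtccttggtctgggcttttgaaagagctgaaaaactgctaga
Atf3 upstream region, chr1:193048302-193048601 (plus strand): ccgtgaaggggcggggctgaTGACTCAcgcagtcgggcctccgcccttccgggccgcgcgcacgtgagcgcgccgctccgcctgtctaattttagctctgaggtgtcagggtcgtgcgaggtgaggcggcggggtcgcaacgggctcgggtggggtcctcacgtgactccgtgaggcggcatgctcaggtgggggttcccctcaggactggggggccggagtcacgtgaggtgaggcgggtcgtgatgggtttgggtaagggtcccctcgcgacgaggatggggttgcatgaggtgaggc
The Fosl1 region held 2 AP-1 sites, the Atf3 region 1, and the Fos and Fosb regions none. The regions of Jund (−15.3 kb) and Ier2 (−50.1 kb), chosen in the same way and not printed, held none either, so 2 of 6 held the site. Over all distal peaks, the same window held the site in 13.4% of replicate 1 peaks (12.8–13.9) and 13.2% of fibroblast peaks (12.6–13.9).

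Chondrocyte and fibroblast distal peaks near the 10 genes were compared by an overlap of at least 1 bp, to ask which marks were specific to a cell type. Of 22 distal replicate 1 peaks, 8 had no fibroblast peak, or 36.4% (17.2–59.3), against 70.9% of all 15814 distal peaks of the list. All 3 distal replicate 1 peaks near Fosl2 were among the 8. Of 16 distal fibroblast peaks, 5 had no replicate 1 peak, or 31.3% (11–58.7), against 57.0% (56.0–58.0) of all 10098. When WT replaced replicate 1, 32 of 44 distal peaks had no fibroblast peak (72.7%, 57.2–85.0), against 74.7% over all, so the lower share near these genes did not hold with the WT list. With the deletion list it was 63.9% of 36 against 67.4% over all, and in the higher-scoring 50% of replicate 1 and fibroblasts it was 5 of 6.

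**Figure D4:**
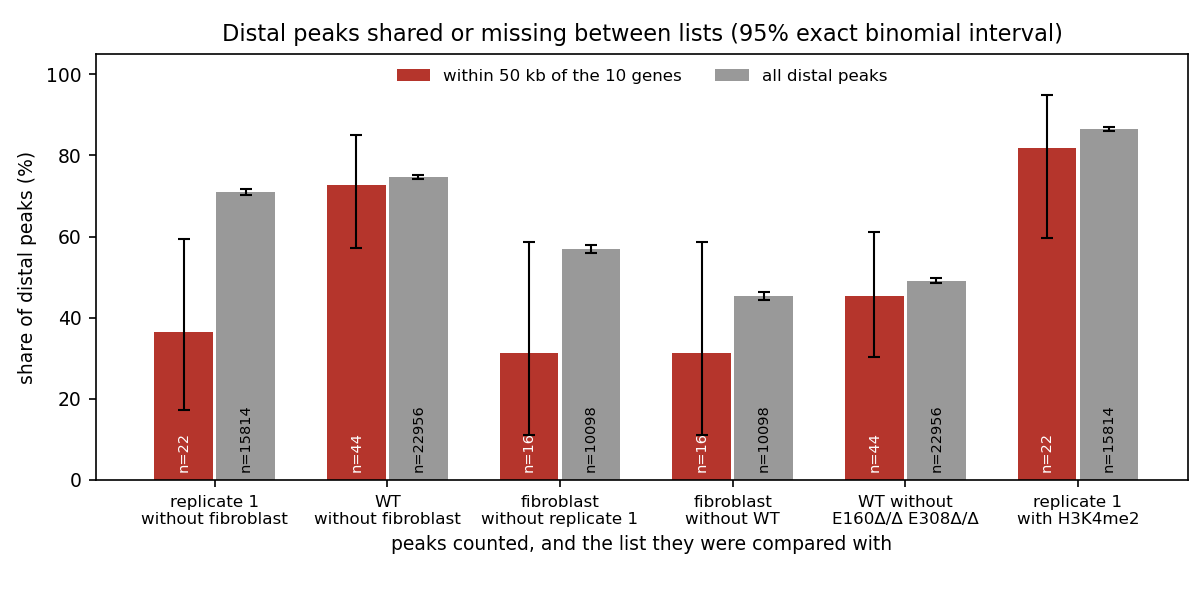
Share of distal peaks (%) within 50 kb of the 10 genes (red) and of all distal peaks (grey) that lacked or held a peak of a second list, with 95% exact binomial intervals and the number of peaks in each bar. The red bar of replicate 1 without a fibroblast peak (36.4%) lies under its grey bar (70.9%), and the 2 bars of WT without a fibroblast peak (72.7% and 74.7%) lie together.

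The highest-scoring replicate 1 peaks without a fibroblast peak lay at −1.75 kb from the Egr1 TSS (918 bp, top 25.7%), in an intron of Fosb 1.56 kb downstream of its TSS (510 bp, top 47.9%) and 23.8 kb downstream of Fos (787 bp, top 53.5%). All 3 overlapped H3K4me2, and the first 2 also overlapped WT and deletion peaks. The Egr1 peak overlapped the gene's promoter peaks in WT and H3K4me2, and the Fosb peak overlapped its H3K4me2 promoter peak. These 2 are therefore not clearly separate from the promoters. In fibroblasts, the highest without a replicate 1 peak were 2 peaks in introns of Cacna1a, 27.8 and 46.8 kb downstream of Ier2 (2414 and 506 bp, top 54.9% and 67.7%), and a 339 bp peak 59.1 kb downstream of the Atf3 TSS (top 81.3%). The first of these overlapped peaks of WT and deletion chondrocytes, so it was not specific to fibroblasts.

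The highest distal peak of each gene was shared between the cell types at Fosl1 (a region at −14.2 kb), Jund (−15.3 kb) and Atf3. At Fos it was the downstream region in both, at Fosb the highest fibroblast peak was instead the region at −23.1 kb (top 36.3%), and at Ier2 it was at −50.1 kb in replicate 1 and 23.7 kb downstream in fibroblasts. At Jun, the 480 bp replicate 1 peak at −30.7 kb (top 86.1%) and the 411 bp fibroblast peak at −21.5 kb (top 90.3%) had no partner. Junb had no distal peak in replicate 1 or fibroblasts, and Egr1 had none in fibroblasts. The 24.3 kb downstream peak of Fosl2 in replicate 1 (1683 bp, top 60.1%) had H3K4me2 and a deletion peak but no WT peak.

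H3K4me2 accompanied most distal H3K27ac. Of the 22 replicate 1 peaks, 18 overlapped an H3K4me2 peak, or 81.8% (59.7–94.8), against 86.6% over all, and 3 of the 4 without it lay near Ier2. Of the 16 fibroblast peaks, 14 overlapped chondrocyte H3K4me2 (87.5%, 61.7–98.5), against 67.0% over all, although H3K4me2 was mapped in the other cell type.

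The comparison of WT and E160Δ/Δ E308Δ/Δ chondrocytes asked whether marks change elsewhere when the Sox9 enhancers are removed. None of the 10 genes lies on the chromosome of Sox9. Of 44 distal WT peaks, 20 had no deletion peak, or 45.5% (30.4–61.2), against 49.2% of all 22956, and 2 of 36 deletion peaks had no WT peak (5.56%, 0.680–18.7), against 1.78%. A single lost peak was in the higher-scoring 50% of the WT list, a 472 bp peak 42.6 kb downstream of Fosb in an intron of Vasp (top 45.0%). All 3 distal WT peaks of Egr1 and 4 of 5 at Jun and at Fosl2 were missing, while none was missing at Fos (of 3) or Atf3 (of 1).

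At promoters, bases covered within 5 kb of the TSS in WT and deletion chondrocytes were 1360 and 376 at Fosb, 2062 and 706 at Fosl1, 3038 and 1748 at Egr1 and 839 and 508 at Atf3. They were closer at other genes, with 8742 and 8110 at Fosl2, 6032 and 5676 at Ier2, 4134 and 3669 at Jun, 6695 and 5597 at Junb, 4344 and 3260 at Jund and 2852 and 2115 at Fos. The median ratio of deletion to WT was 0.751 over the 9 members marked in both and 0.791 over all 9864 such promoters. All 10 ratios were below 1, in a deletion list that was shorter as a whole (25213 against 33369 peaks). The part of list length in these values was not tested.

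For fibroblasts over replicate 1, the median ratio of covered bases was 1.17 over the 6 members marked in both and 0.860 over all promoters marked in both. Over WT it was 0.699 (8 members) against 0.847, so the direction of the fibroblast difference at the members depended on the chondrocyte list.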

How the data were processed

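H3K27ac and H3K4me2 ChIP-Seq peak lists were used as the authors deposited them, with 1 list for each library and no pooled replicates. The methods state trimming by fastp, alignment to mm9 by Bowtie2 2.4.4 and peak calling against input by MACS2 2.2.4. Replicate 1, fibroblast and H3K4me2 lists hold position and the deposited score alone, whose lowest value is 50, and their layout is that of an earlier MACS release. Replicate 2, WT and deletion lists are narrowPeak files with the authors' score (10 times −log10 q), fold enrichment and −log10 p-value and q-value. Scores were ranked only within a list.

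Replicate 2 marked 8732 promoters with GRCm38 and 1352 with mm9 gene positions, so GRCm38 was used for it and GENCODE vM1 (mm9) for the others, with no conversion. Depth is unknown. A gene is marked when a peak reaches within 1 kb of its TSS, the widest such peak standing for it. A rank of top x% is the position from the top of the list. Distal peaks lie over 1 kb from the TSS of every protein-coding gene, with a single TSS for each gene, and sharing needs 1 bp. Overlaps were tested on simulated data and against bedtools. Scripts ran in Python 3.11.15 with pandas 2.3.3, numpy 2.4.6, matplotlib 3.10.9 and scipy 1.17.1. No test between groups was run. The input library was not analysed here. The alternatives were other promoter windows, starts, ranks, distances, overlaps, list lengths and chondrocyte lists.

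The 10 genes and the related gene lists were chosen with earlier results of these data known. All 10 genes were named, with the highest distal peak of each per cell type, the 3 highest unshared peaks per cell type, WT peaks lost in the higher-scoring 50%, the 5 related genes with the widest WT peak and those marked in no list.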

Additional observations from a re-analysis of the deposited data

How the results depend on the processing

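With the higher-scoring 50% of the H3K4me2 list, 5 genes were marked instead of 8, and the other windows and starts left every count of marked genes within 1.5 times. Leaving out one chondrocyte replicate gave 7 to 10 marked genes against a mean of 8.5. The median width rank of the members, given as the top percent in the order replicate 1, replicate 2, WT, deletion, fibroblasts, H3K4me2, was 8.54, 9.54, 9.64, 8.21, 4.55 and 2.91. After joining peaks under 1 kb apart it was 6.29, 5.11, 5.87, 4.66 and 5.55 in the first 5 lists. Ranked among promoter peaks it was 12.2, 13.5, 17.3, 12.5, 6.08 and 7.12. By bases covered within 5 kb it was 12.3 in replicate 1, 11.1 in WT, 7.43 with the deletion, 8.21 in fibroblasts and 11.6 for H3K4me2. The median score rank among promoter peaks was the top 57.0%, 32.9%, 29.9%, 25.6%, 52.6% and 74.8% in the order of all 6 lists.

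The share of distal replicate 1 peaks without a fibroblast peak moved from 36.4% to 63.6% with 50% reciprocal overlap (84.6% over all distal peaks), 83.3% of 6 peaks in the higher-scoring 50% (74.0%), 72.7% with the WT list and 63.9% with the deletion list. Fibroblast peaks without replicate 1 moved from 31.3% to 75.0% of 4 peaks in the higher-scoring 50% (44.7% over all distal peaks). Within 25 kb they were 10% (57.0% over all). Replicate 1 peaks with H3K4me2 moved from 81.8% to 31.8% with reciprocal overlap (42.7% over all) and 59.1% with equal numbers of peaks (44.45%). WT peaks without a deletion peak moved from 45.5% to 63.6% (67.0% over all) and 24.1% (29.2%) under the same settings. The cause was not tested. No paired analysis was possible because no test was run and the WT and deletion littermates gave 1 library each. Few peaks (16 to 51 a list) limit the distal shares, and without read numbers a missing peak is not an absent mark.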

Other observations

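The AP-1 site TGANTCA, the target of dimers of FOS and JUN proteins, was counted in the central 300 bases of peaks in the mm9 lists, on both strands. It was found in 13.4% of distal replicate 1 peaks (12.8–13.9), 11.5% of distal WT peaks (11.1–12), 10.2% of distal deletion peaks (9.74–10.7), 13.2% of distal fibroblast peaks (12.6–13.9) and 15.7% of distal H3K4me2 peaks (15.4–16.0). In windows 5 kb away the shares were 8.42%, 8.73%, 8.51%, 8.50% and 8.86%, and at promoter peaks 5.31%, 3.85%, 3.93%, 3.66% and 6.49%, in the same order. Distal replicate 1 peaks with a fibroblast peak held the site in 13.9% of cases (13.0–15.0) and those without in 13.1% (12.5–13.7). Distal WT peaks held it in 13.6% with a fibroblast peak (12.7–14.5) and in 10.8% without (10.4–11.3).

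Within 50 kb of the 10 genes the site lay in 2 of 22 distal replicate 1 peaks, 10 of 44 WT peaks, 4 of 36 deletion peaks, 5 of 16 fibroblast peaks and 8 of 51 H3K4me2 peaks. Promoter and distal peaks differed in base composition, with a median GC content of 56.0% and 45.0% in replicate 1, and the part of this in the shares was not tested.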
